A study of Mus musculus with 4 samples.

Results

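Messenger RNA of 10 genes of dopamine and serotonin signalling was measured in whole mouse brain. The genes were taken from a fixed list of names: the synthesis enzymes Th and Tph2, the transporters Slc6a3, Slc18a2 and Slc6a4, and the receptors Drd1, Drd2, Htr1a, Htr2a and Htr2c. Every array probe whose accession belonged to one of them was used, which gave 13 probes, among 41174 probes and 16535 named genes on the array. The rule that picks the probes uses no measured value, but the genes were listed with earlier results of these data known.

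Dopamine and serotonin are made by small groups of neurons in the midbrain and brainstem that send axons through the whole forebrain. Tyrosine hydroxylase (Th) and tryptophan hydroxylase (Tph2) catalyse the rate-limiting steps of their synthesis, the vesicular transporter Slc18a2 loads both into synaptic vesicles, and Slc6a3 and Slc6a4 take them back up after release. The transporter and synthesis messages therefore lie mainly in the producing neurons, whereas the receptor messages lie mainly in target regions such as striatum, cortex and hippocampus, and some receptors also sit on the producing neurons.

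Brains came from 3 groups of 50 week old mice: SAMP8 mice (senescence-accelerated mouse prone 8) fed a low-safflower oil control diet (LSO), SAMP8 mice whose diet held whale meat extract (WME) in addition, and SAMR1 mice, a senescence-resistant strain used as the control of SAMP8, on LSO. The labels give the genetic background of the strains as AKR/J, with outbreeding to a line that is not known. The diets were given for 26 weeks from an age of 24 weeks, and all groups had passed through 8 days of behavioural tests at 49 weeks, so no group was free of the tests or on chow only. The RNAs were set against each other on 4 arrays with 2 dyes, as 2 pairs with the dyes exchanged: WME against LSO in SAMP8, and SAMP8 against SAMR1 on LSO. Both comparisons share the SAMP8 LSO RNA. The labels do not say how many mice stood behind an RNA, so each group is 1 replicate, no test was possible, and no p-values are given. The SD given with a ratio is that over the 2 dye orientations, and the technical SD is the error of the mean of both arrays, estimated over probes of like brightness. The technical SD ran from 0.037 to 0.066, so a smaller SD over 2 arrays does not show a more precise ratio. In a whole brain RNA, fewer cells of a type and less RNA per cell cannot be told apart.

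Each array held 43379 spots, of which 0 were saturated, and 81.4% to 85.6% stood well above background. All 13 member probes were well above background in all 8 channels, so every member passed the filter on dim probes. Among markers of the producing neurons, 7 of 8 serotonin neuron markers and 11 of 13 midbrain dopamine neuron markers were measured, Fev and Pitx3 among them, while En1 and Lmx1a were not well above background. A kidney and a pituitary transcript differed between the RNAs. Kap, a kidney transcript, had a log2 ratio of 4.44 ± 0.92 for WME over LSO and −3.00 ± 0.070 for SAMP8 over SAMR1, and Pomc, the precursor of corticotropin, had 1.76 ± 0.15 and −0.13 ± 0.0030. Of 10 measured pituitary markers Pomc was the only 1 called with the diet, where 0.109% of named genes were, and their median diet ratio was 0.035. Whether kidney or pituitary tissue entered the RNAs was not tested, nor was its part in the member values.

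The promoters of Tph2, Slc6a4 and Th are shown because Tph2 and Slc6a4 had the lowest ratios of the diet comparison and Th the lowest of the strain comparison. Each sequence covers the 250 bases before the start of the gene, from RefSeq on GRCm38.p6. Tph2 lies at chr10:115185023-115185272 on the minus strand, Slc6a4 at chr11:76998347-76998596 on the plus strand and Th at chr7:142899996-142900245 on the minus strand. Capitals mark the cyclic AMP response element TGACGTCA and the TATA motif TATAAA, each searched on both strands.
Tph2: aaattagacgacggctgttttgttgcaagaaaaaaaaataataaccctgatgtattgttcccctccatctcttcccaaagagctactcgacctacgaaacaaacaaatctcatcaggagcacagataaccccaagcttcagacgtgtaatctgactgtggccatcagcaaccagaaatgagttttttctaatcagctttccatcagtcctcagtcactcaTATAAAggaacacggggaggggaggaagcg
Slc6a4: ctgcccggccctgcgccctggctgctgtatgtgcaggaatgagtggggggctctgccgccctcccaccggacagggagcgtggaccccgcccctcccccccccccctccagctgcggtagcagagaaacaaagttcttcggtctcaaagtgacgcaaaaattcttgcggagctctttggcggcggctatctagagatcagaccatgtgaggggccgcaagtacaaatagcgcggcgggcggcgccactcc
Th: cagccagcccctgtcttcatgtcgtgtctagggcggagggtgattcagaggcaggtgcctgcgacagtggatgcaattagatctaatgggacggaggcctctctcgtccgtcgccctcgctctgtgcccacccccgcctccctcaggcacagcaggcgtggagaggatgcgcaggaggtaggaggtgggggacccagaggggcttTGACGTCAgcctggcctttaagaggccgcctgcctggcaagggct
The Tph2 window held TATAAA with its first base 30 bases before the start, and the Th window held TGACGTCA 45 bases before it. The Slc6a4 window held neither. Over 32851 windows of the same length, 1.55% held TGACGTCA and 12.4% held TATAAA. The core GGAA bound by ETS factors such as Fev, a regulator of serotonin neurons, was found 5 times in the Tph2 window and 1 time in that of Slc6a4, but 93.4% of all windows held at least 1. The motifs did not overlap each other, and a match describes the letters only.

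No member gene differed by 1.5-fold in either comparison. A probe was called where each array of the pair put the same RNA at least 1.5-fold above the other. Under it 0 of 13 probes were called for WME over LSO, where 0.08% of 33738 measured probes were called, and 0 of 13 for SAMP8 over SAMR1, where 1.43% of 34020 were. With the threshold at a ratio 25% above 1, which 0.175% and 3.38% of probes passed, the count of members stayed at 0 in each comparison. The shares are small, so a count of 0 among 13 probes is near the background.

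The 2 genes that stood lowest with the WME diet were those of serotonin synthesis and reuptake. The Tph2 probe read 9.14 and 9.21 in the WME RNA, as log2 intensity in Cy5 and Cy3. It read 9.37, 9.39, 9.41 and 9.45 in the 4 channels of SAMP8 LSO, and 9.40 and 9.51 in SAMR1 LSO. Both WME channels lay below all 6 others, and the channels of the strains overlapped. Here and below, the share of all probes whose channels separate in such a way was not counted. The log2 ratio of WME over LSO was −0.31 with WME in Cy5 and −0.16 with WME in Cy3, a mean of −0.23 ± 0.11 (SD over 2 arrays of 1 RNA pair, technical SD 0.046), which is −14.9%. Of all measured probes, 0.314% had a ratio as low or lower. For SAMP8 over SAMR1 the ratio of Tph2 was −0.057 ± 0.062, within 2 technical SD of 0.

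Slc6a4, which encodes the serotonin reuptake transporter, stood lowest in the same RNA. Its probe read 9.10 and 9.01 in the WME RNA, between 9.26 and 9.41 in the 4 channels of SAMP8 LSO, and 9.45 and 9.54 in SAMR1. The 3 RNAs did not overlap, with SAMR1 highest and WME lowest. The diet ratio was −0.16 and −0.34 on the 2 arrays, a mean of −0.25 ± 0.12 or −15.7% (technical SD 0.046), and 0.264% of measured probes were as low or lower. The strain ratio was −0.13 and −0.090, a mean of −0.11 ± 0.027, lower in SAMP8 on both arrays. It lay within the wide spread of the strain comparison, where 26.5% of measured probes were as far from 0. The diet ratios of both genes kept their sign under each other normalization, at −0.15 to −0.26 for Tph2 and −0.18 to −0.33 for Slc6a4.

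The measured serotonin neuron markers lay nearer to 0. So did Ddc, which had the lowest diet ratio of the 17 other monoamine synthesis, cofactor, transport and breakdown genes. Its ratio was −0.15 and −0.031 on the 2 arrays, a mean of −0.088 ± 0.080 (technical SD 0.040; 0.083 under median centring). The other Ddc probe had −0.046 ± 0.22. Of 8 serotonin neuron markers, 7 were measured, 0 were called, and their median diet ratio was 0.0099. Of the 7, 1 was above and 1 below 0 on both arrays, where 20.7% and 14.6% of named genes were, and 0.109% of named genes were called (1.48% in the strain comparison). Fev, a transcription factor that defines serotonin neurons, had a diet ratio of 0.0052 ± 0.017 and a strain ratio of 0.037 ± 0.054. Gata2 and Gata3, which act earlier in the same lineage, had diet ratios of 0.038 ± 0.12 (0.11 ± 0.28 at another Gata2 probe) and 0.038 ± 0.051, and Lmx1b had 0.019 ± 0.076. The members of this list with the largest ratios were Slc17a8, a vesicular glutamate transporter, at −0.051 ± 0.24 for the diet and 0.12 ± 0.14 for the strain, and Gch1, which makes the cofactor of both hydroxylases, at 0.11 ± 0.10 for the strain. The other Slc17a8 probe had the opposite sign in each comparison, at 0.020 ± 0.0084 and −0.13 ± 0.062. Under median centring the diet median of the list was 0.047, which is 0.078 below that of all named genes. With loess it was 0.0042 above. The 7 markers had mean log2 intensities from 7.39 (Lmx1b) to 11.5 (Maob), with Fev at 8.84, so Maob and Slc17a8 (10.8) dominate their sum. The summed intensity of the 7 was 6384 to 6445 in WME, 6274 to 6750 in SAMP8 LSO and 6382 to 6414 in SAMR1, which overlapped. That of Tph2 and Slc6a4 together was 1109 to 1115, 1311 to 1351 and 1420 to 1428, which did not. Tph2 and Slc6a4 were already picked out as lowest with the diet, so their sum only restates that. Because Maob and Slc17a8 dominate the sum of the 7, a change in the dimmer markers would show little in it. The channels are repeats of 1 RNA per group, and a change in serotonin neurons was not tested.

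Cerebellar markers were also low with the WME diet. The serotonin neurons lie in the brainstem, and the 9 hindbrain and brainstem markers had a median diet ratio of −0.018, with 2 above and 2 below 0 on both arrays. Hoxb3, a positional gene of the hindbrain, had the largest of them for the diet, at 0.11 ± 0.27, with 0.033 ± 0.0073 at its other probe. Under median centring the median of the list was 0.15 below that of all named genes, and with loess 0.024 below. The 12 cerebellar markers had a median of −0.23, which lies 0.24 below that of all named genes, and 11 of them were below 0 on both arrays. Under median centring their median was −0.050, which lies 0.18 below that of all named genes. Of all named genes, 20.7% were above and 14.6% below 0 on both arrays of the diet pair. Cbln1, a synapse organiser of granule cells, had −0.29 ± 0.081 and En2, a midbrain and hindbrain patterning factor, −0.27 ± 0.13. The summed intensity of the 12 was 182105 to 191380 in WME, 209249 to 219153 in SAMP8 LSO and 194488 to 202131 in SAMR1. Their median strain ratio was 0.097, with 8 above 0 on both arrays, against 25.9% of named genes. The largest were the granule cell factor Zic1 at 0.26 ± 0.24 and Car8 at 0.22 ± 0.084. The part of tissue makeup in the serotonin values was not tested.

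**Figure D1:**
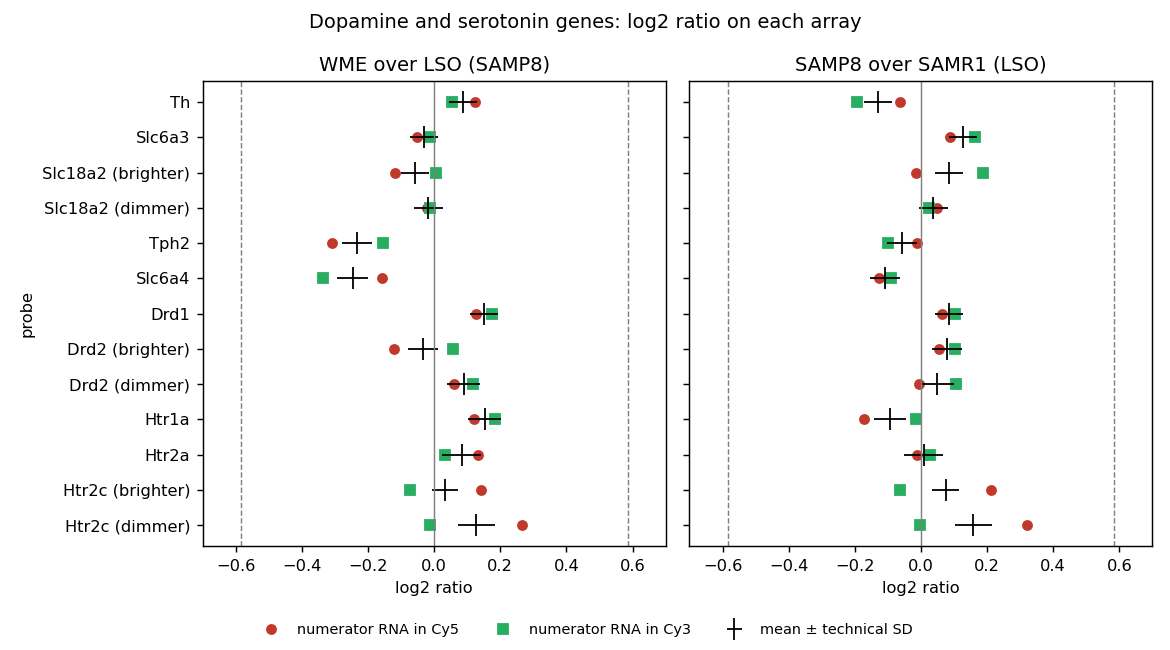
Log2 ratio (x axis) of each of the 13 member probes (rows) for WME over LSO in SAMP8, left, and SAMP8 over SAMR1 on LSO, right. Circles and squares are the 2 dye orientations, crosses the mean with the technical SD of that mean, and dashed lines mark 1.5-fold. Tph2 and Slc6a4 lie lowest in the left panel, at −0.23 and −0.25, and no point crosses a dashed line.

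The diet ratios of the dopamine synthesis and transport genes lay nearer to 0 than those of Tph2 and Slc6a4, while in the strain comparison Th and Slc6a3 lay farther from 0. Th, read from 10 repeated spots of 1 probe of which 9 were usable on each array, rested on the most spots. Its level was 10.67 and 10.72 in WME, 10.60 to 10.63 in the 4 channels of SAMP8 LSO, and 10.69 and 10.79 in SAMR1. SAMP8 LSO lay below all other channels, and WME and SAMR1 overlapped. The strain ratio was −0.065 and −0.19 on the 2 arrays, a mean of −0.13 ± 0.091 or −8.6%, with all 9 spots below 0 on each array. The SD over spots was 0.027 and 0.051, so the gap between the dye orientations was larger than the scatter between spots. As many as 20.2% of measured probes were as far from 0 in the strain comparison. The diet ratio was 0.12 and 0.054, a mean of 0.088 ± 0.048 (technical SD 0.042), with 9 of 9 and 7 of 9 spots above 0.

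Slc6a3, the dopamine reuptake transporter, read 11.14 and 11.20 in WME, 11.19 to 11.29 in SAMP8 LSO, and 11.11 and 11.20 in SAMR1, and the 3 RNAs overlapped. Its strain ratio was 0.089 and 0.16, a mean of 0.13 ± 0.053 in the opposite direction to Th. Its diet ratio was −0.031 ± 0.027, within 2 technical SD of 0. Slc18a2, which serves dopamine, serotonin and noradrenaline neurons alike, was read by 2 probes. The brighter read 10.46 and 10.54 in WME, 10.53 to 10.58 in SAMP8 LSO, and 10.35 and 10.60 in SAMR1, and the RNAs overlapped for both probes. It gave −0.057 ± 0.086 for the diet and 0.086 ± 0.14 for the strain, with opposite signs on the 2 arrays in each comparison. The dimmer gave −0.017 ± 0.0061 and 0.037 ± 0.015. The mean ratios of Slc6a3 and Slc18a2 thus had the opposite sign to Th in each comparison, but for the diet those of Slc6a3 and both Slc18a2 probes were above 0 under median centring, at 0.13, 0.082 and 0.10, where Th had 0.23. That setting also moved the diet median of all named genes to 0.125 and that of all measured probes to 0.063. Slc6a3, at 0.128, lay above both. Both Slc18a2 probes lay between these medians, so the direction of Slc18a2 under that setting depends on which is taken as the base.

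Markers of midbrain dopamine neurons had a median diet ratio of 0.0076 over 11 of 13 measured, with 0 called. On both arrays 2 of these markers were above and 3 below 0, against 20.7% and 14.6% of named genes. For the strain their median was 0.038, with 6 above and 1 below 0 on both arrays and 0 called, against 25.9% of named genes above and 23.4% below. Nr4a2, a nuclear receptor needed for the dopamine phenotype that is also an activity-induced gene, had the largest strain ratio, at 0.39 ± 0.23. The next was Foxa1, at 0.34 ± 0.47, which rested on array 3 alone, where it was 0.68 against 0.0078 on array 4. In the diet comparison Ntsr1, a neurotensin receptor, had 0.14 ± 0.27 and Dlk1 had 0.081 ± 0.092. The 12 immediate early genes had medians of −0.48 for the diet and 0.57 for the strain, and their part in the value of Nr4a2 was not tested.

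Th is also made by interneurons of the olfactory bulb. The olfactory bulb list holds Th itself, and of its 8 other genes 7 were measured. Their median strain ratio was −0.26, with 5 below 0 on both arrays, against 23.4% of named genes. Under median centring and processed signals that median was −0.26 and −0.33. Doc2g and Cdhr1, genes of mitral and tufted cells, had −0.40 ± 0.22 and −0.35 ± 0.20, and Eomes, of the same cells, had 0.048 ± 0.095. The median diet ratio of the 7 was 0.11, with 3 above and 1 below 0 on both arrays, against 20.7% and 14.6% of named genes. Tbx21 at 0.18 ± 0.084 and Cdhr1 at 0.15 ± 0.20 had the largest. The summed intensity of the 7, which the bright gene Pcp4 dominates, was 101568 to 142533 in WME, 106719 to 138912 in SAMP8 LSO and 112610 to 140476 in SAMR1, so the RNAs overlapped. These genes had the sign of Th in both medians, and the part of the olfactory bulb in the Th values was not tested.

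Noradrenaline neurons also contain Th and Slc18a2. Their 6 markers had medians of 0.013 and −0.0088, with 0 called. Under median centring the diet median was 0.099 below that of all named genes, and with loess 0.0077 above. Dbh, which turns dopamine into noradrenaline, and Slc6a2, the noradrenaline transporter, had diet ratios of 0.11 ± 0.0018 and 0.099 ± 0.0091. Their technical SD was 0.053 and 0.056, so Slc6a2 lay within 2 technical SD of 0 and Dbh just beyond. In the strain comparison Slc6a2 had −0.17 ± 0.077 and Hmx3, a transcription factor, 0.15 ± 0.13.

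**Figure D2:**
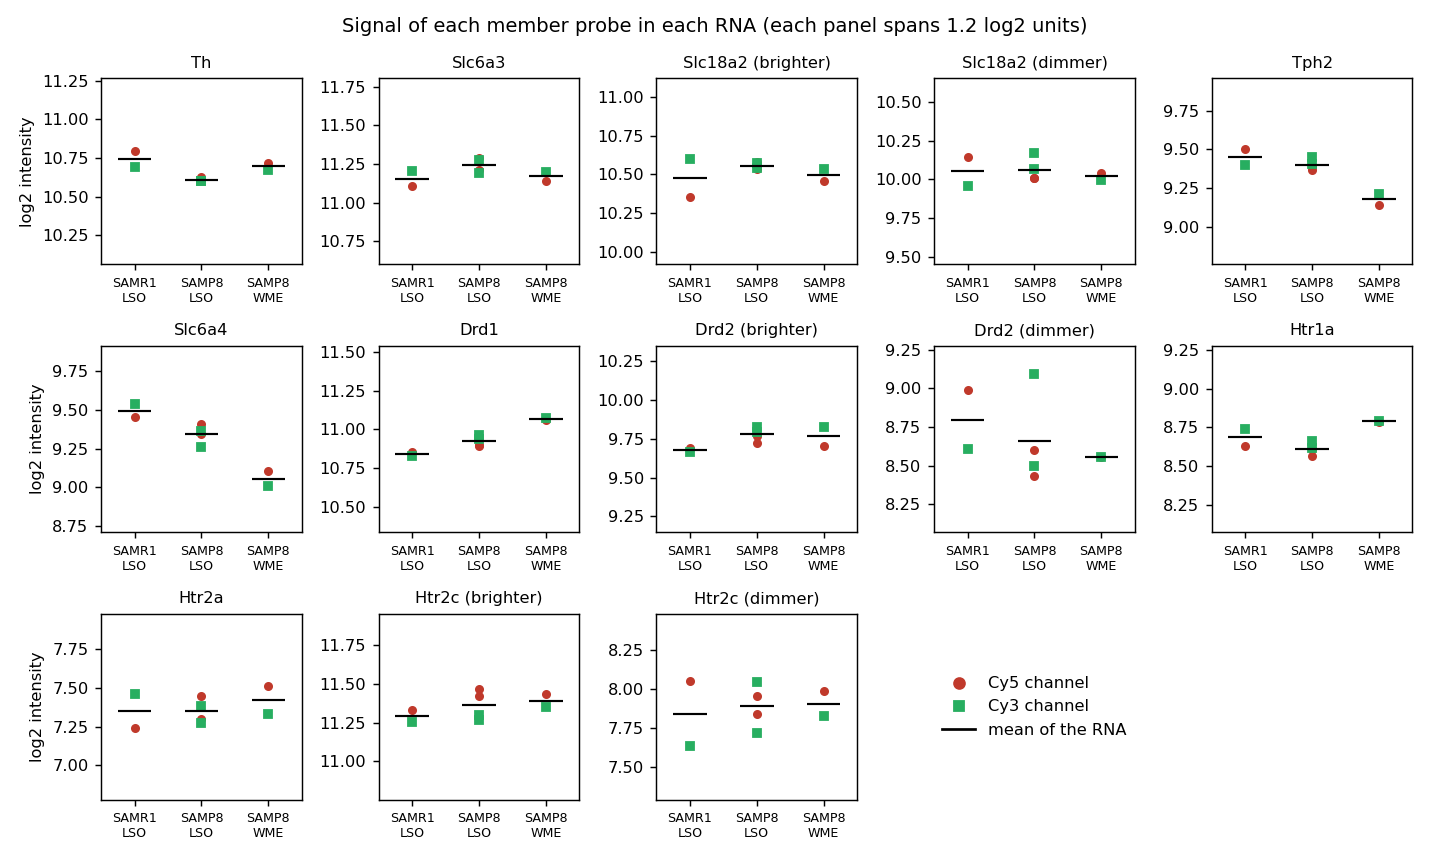
Log2 channel intensity (y axis) of each member probe in SAMR1 LSO, SAMP8 LSO and SAMP8 WME, with circles for Cy5, squares for Cy3 and a bar for the mean of the RNA, which has 2, 4 and 2 channel values. Panels have different ranges of equal height, so heights are comparable only within a panel. The WME points of Tph2 and Slc6a4 lie below all others, and those of Drd1 and Htr1a above. The share of all probes that separate in this way was not counted.

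Of the dopamine receptors, Drd1 had the diet ratio farther from 0. Drd1, the receptor that raises cyclic AMP in striatal neurons of the direct pathway, read 11.06 and 11.07 in WME, 10.89 to 10.96 in the 4 channels of SAMP8 LSO, and 10.83 and 10.86 in SAMR1. The channels of the 3 RNAs did not overlap, with WME highest and SAMR1 lowest. They are repeats of 1 RNA per group, and WME and SAMR1 shared no array, so they do not establish an order of the 3 groups. The diet ratio was 0.13 and 0.17, a mean of 0.15 ± 0.035 (technical SD 0.043; 0.30 under median centring, 0.24 above the median of all measured probes), and 1.38% of measured probes were as high or higher. The strain ratio was 0.065 and 0.10, a mean of 0.085 ± 0.028, within 2 technical SD of 0. Drd2, the receptor of the indirect pathway that also serves as an autoreceptor on dopamine neurons, had 2 probes that disagreed on the diet, at −0.033 ± 0.12 for the brighter and 0.089 ± 0.041 for the dimmer. They had the same sign for the strain, at 0.079 ± 0.035 and 0.050 ± 0.079. The brighter read 9.71 and 9.83 in WME, 9.72 to 9.83 in SAMP8 LSO, and 9.67 and 9.69 in SAMR1, so WME and SAMP8 LSO overlapped and SAMR1 was lowest. The dimmer read 8.55 and 8.56 in WME, 8.44 to 9.09 in SAMP8 LSO, and 8.61 and 8.99 in SAMR1, so SAMP8 LSO spanned the others.

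Striatal projection neurons carry most Drd1 and Drd2 message, and all 15 genes fixed for them were measured with 0 called. Their median diet ratio was 0.029, with 5 above and 0 below 0 on both arrays, against 20.7% and 14.6% of named genes. Pde10a, a striatal phosphodiesterase, had 0.14 ± 0.12, and Foxp1, a transcription factor, 0.11 ± 0.095. Ppp1r1b, which encodes the dopamine-regulated phosphatase inhibitor DARPP-32, had −0.052 ± 0.28 for the diet and 0.083 ± 0.047 for the strain. The median strain ratio was 0.037, with 9 above and 2 below 0 on both arrays, against 25.9% and 23.4% of named genes. Under median centring it was −0.023, where the median of all named genes was −0.034. Gng7, a G protein subunit of these neurons, had a strain ratio of 0.27 ± 0.072, against 0.025 ± 0.0052 at its other probe. Tac1, which encodes substance P, had 0.14 ± 0.10. The summed intensity of the list was 158272 to 178254 in WME, 165212 to 169741 in SAMP8 LSO and 154293 to 167517 in SAMR1, and the RNAs overlapped.

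The mean diet ratio was above 0 for all 3 serotonin receptors, although the arrays disagreed on Htr2c and Htr2a was at 0.0035 under median centring, which is 0.059 below the median of all measured probes. Htr1a, an inhibitory receptor of hippocampal neurons that also acts as the autoreceptor of serotonin neurons, read 8.78 and 8.79 in WME, 8.57 to 8.66 in SAMP8 LSO, and 8.63 and 8.74 in SAMR1. Both WME channels lay above all others, while the strains overlapped. The diet ratio was 0.12 and 0.19, a mean of 0.15 ± 0.045 or 11.2% (technical SD 0.049), and 1.31% of measured probes were as high or higher. The strain ratio was −0.17 and −0.015, a mean of −0.093 ± 0.11, within 2 technical SD of 0.

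Htr2a, a cortical receptor coupled to phospholipase C, was the dimmest member, with raw signals of 127 to 174. Its level was 7.33 and 7.52 in WME, 7.27 to 7.45 in SAMP8 LSO, and 7.24 and 7.46 in SAMR1, and the 3 RNAs overlapped. The diet ratio was 0.083 ± 0.069, and the strain ratio was 0.0081 ± 0.026 but −0.16 with processed signals. Htr2c, a receptor abundant in choroid plexus as well as neurons, was read by 2 probes that had opposite signs on the 2 arrays of each pair. The brighter read 11.35 and 11.44 in WME, 11.27 to 11.47 in SAMP8 LSO, and 11.26 and 11.33 in SAMR1, and the 3 RNAs overlapped. It gave 0.034 ± 0.15 for the diet and 0.074 ± 0.19 for the strain, and the dimmer 0.13 ± 0.20 and 0.16 ± 0.23. The gap between the dye orientations was larger than the mean for both probes. In each pair both probes read higher with WME, or SAMP8, in Cy5, so the gap followed the dye. The mean of both orientations was above 0 for both probes in each comparison. It lay within 2 technical SD of 0 for the brighter (technical SD 0.040) and beyond 2 for the dimmer (technical SD 0.056). Of 10 measured choroid plexus markers, 8 were below 0 on both arrays in the strain comparison, against 23.4% of named genes. The median of the 10 was −0.16 (Ttr −0.17 ± 0.0029, Folr1 −0.32 ± 0.32 and −0.14 ± 0.038 at its other probe, Sostdc1 −0.21 ± 0.13). In the diet comparison the median of the 10 was 0.056, with Cldn2, a tight junction protein, at 0.24 ± 0.017 and Kl at 0.15 ± 0.066. The part of the choroid plexus in the Htr2c values was not tested.

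Of 14 other dopamine and serotonin receptors 12 were measured, with medians of 0.017 for the diet and −0.011 for the strain, and 0 called. With diet 3 were above and 3 below 0 on both arrays, against 20.7% and 14.6% of named genes. With strain 2 were above and 3 below, against 25.9% and 23.4%. Under median centring the diet median of these receptors was −0.052, which is 0.18 below that of all named genes. With loess it was 0.012 above. Htr5b had the largest diet ratio, at 0.24 ± 0.085, and Htr3a, a ligand-gated channel of interneurons, had −0.10 ± 0.38. For the strain, the autoreceptor Htr1b had 0.26 ± 0.10 and Htr3a −0.14 ± 0.30. The 17 other genes of synthesis, cofactor supply, transport and breakdown were all measured, with medians of 8.3e-05 and 0.011 and 0 called. Among them Tph1, the tryptophan hydroxylase of pineal gland and gut, had 0.21 ± 0.14 for the diet (0.017 ± 0.042 at its other probe) and 0.17 ± 0.040 for the strain (0.15 ± 0.056), and Pcbd1, which recycles the hydroxylase cofactor, had 0.17 ± 0.0010 for the strain. Slc18a1, the vesicular transporter of endocrine cells, had a diet ratio of 0.11 ± 0.055.

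**Figure D3:**
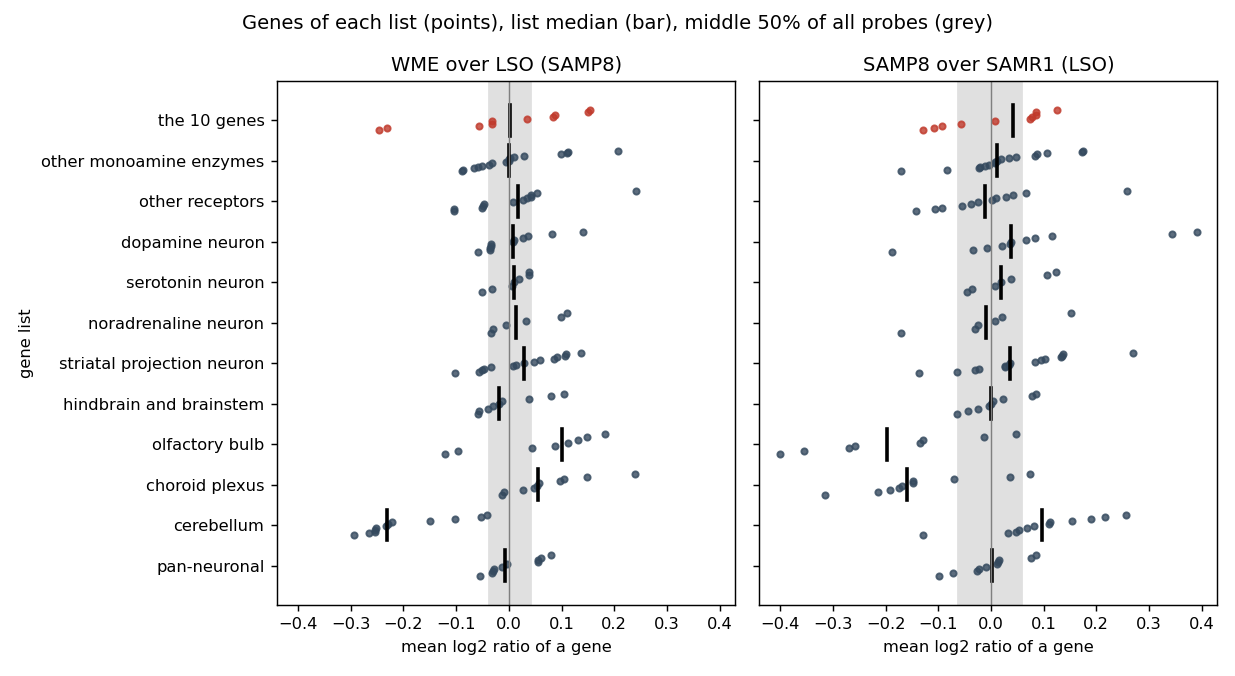
Mean log2 ratio (x axis) of the measured genes of the 10 members and 11 other lists (rows), with a bar for the list median and grey for the quartile range of all measured probes, for WME over LSO in SAMP8 (left) and SAMP8 over SAMR1 on LSO (right). The 10 member genes are in red, with medians of 0.0013 and 0.041; of the lists drawn, the cerebellar one stands lowest with diet, at −0.23, and that of the olfactory bulb, Th included, lowest with strain, at −0.20.

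As a group, the members spread to both sides of 0. For WME over LSO, 5 probes were above 0 on both arrays, 4 were below and 4 had opposite signs, with a median of 0.034 and a range of −0.25 to 0.15. Of all measured probes 20.4% were above and 17.1% below 0 on both arrays, with an SD of the ratios of 0.080. For SAMP8 over SAMR1, 4 were above, 4 below and 5 opposite, with a median of 0.050 and a range of −0.13 to 0.16, against 25.1% and 25.6% of all probes and an SD of 0.20. The mean ratio lay within 2 technical SD of 0 for 7 of 13 probes in the diet comparison and for 8 of 13 in the strain comparison. The same share over all measured probes was not counted. Quartiles of all measured probes were −0.037 and 0.043 for the diet, and −0.062 and 0.059 for the strain.

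**Figure D4:**
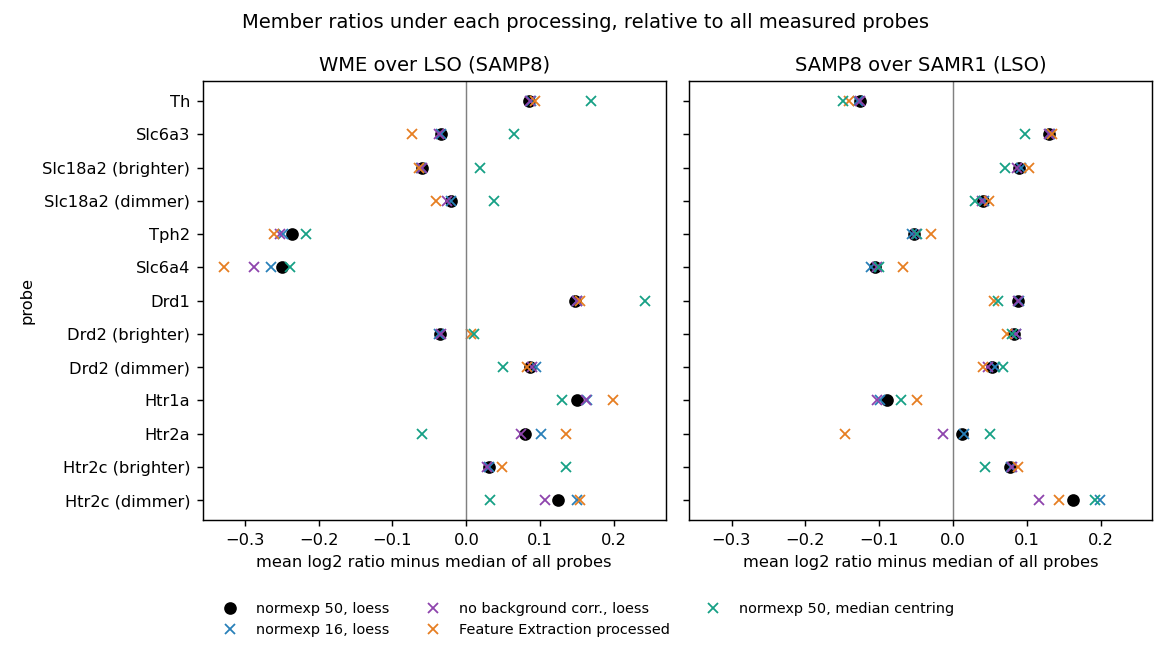
Mean log2 ratio of each member probe minus the median of all measured probes (x axis) under 5 ways of processing, for WME over LSO in SAMP8 (left) and SAMP8 over SAMR1 on LSO (right). Tph2 and Slc6a4 lie between −0.22 and −0.33 on the left in all 5 settings, while Slc6a3, Slc18a2, the brighter Drd2 probe and Htr2a fall on both sides of 0.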

How the data were processed

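Whole brain RNA of the 3 groups was dye-labelled (Cy3, Cy5) and run on 4 Agilent arrays on 1 slide, per the labels. The deposited scanner files hold spot intensities that per the file headers came from Agilent Feature Extraction 11.0.1.1, the version in the submitters' processing notes too. Per the file headers, the log10 ratio of red over green was made from the processed signals, and it was not used. The deposited series table holds log2 ratios, equal to log2 of red over green processed signal within 5e-09 and not turned for the dye swap, with column medians of −0.018, 0.012, 0.0036 and 0.017.

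Median intensities were background-corrected with normexp (offset 50) and loess-normalized within arrays (limma 3.58.1, R 4.3.3). Control spots had weight 0. The offset pulls dim ratios towards 0. Outlier spots (105 to 123 per array) were left out, spots of a probe were averaged, and ratios were turned for dye and averaged over both arrays. Channel levels came from loess followed by Aquantile normalization. A measured probe was one that, on both arrays, stood well above background in 1 or both RNAs. Technical SD came from the contrast of the 4 arrays that cancels RNA and dye, in 20 bins of brightness. Steps were checked on simulated data.

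Probes were named through RefSeq accessions (23374 of 41174) with the table of GRCm38.p6. The arrays name another build, so promoters are given in the table's own coordinates. Gene lists used the brightest probe of a gene. The members and the 16 other lists were chosen with earlier results of these data known. Named genes were all members, up to 4 called genes of a list or else the 2 with the largest ratio per comparison, and Ppp1r1b, Pomc, Prl, Ttr and Kap. Called genes of the kidney, blood and immediate early lists are given as counts. Ddc, Fev, Gata2, Gata3, Lmx1b, Eomes, Pitx3, En1 and Lmx1a were added after their values were seen. Alternatives were median centring, processed signals, an offset of 16, no background correction, other filters, a lower threshold and each array alone. Unlike loess, median centring leaves any trend of the ratio with brightness in place. Lists of unlike brightness are therefore not comparable under it.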

Additional observations from a re-analysis of the deposited data

How the results depend on the processing

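No member passed 1.5-fold under any normalization, background, filter, or a threshold at a ratio 25% above 1. The median log2 ratio of the 13 member probes for WME over LSO, 0.034, was 0.10 under median centring, where the median of all measured probes was 0.063 and that of named genes 0.13, and ran from 0.0044 to 0.060 with 1 array left out. For SAMP8 over SAMR1 it was 0.050, and −0.0060 to 0.026 with 1 array left out. The median over the 10 genes for the diet, 0.0013, was 0.10 under median centring, 0.030 with processed signals, 0.054 with the median over the probes of a gene, and 0.019 to 0.035 with 1 array left out. For the strain it was 0.041, and 0.026 under median centring, −0.0011 with processed signals and −0.012 to 0.0061 with 1 array left out. The cause was not tested. Of the other values, 354 moved by less than the SD over the 2 dye orientations and 90 moved by more. With 2 arrays, leaving 1 out always moves the mean of a probe by less than that SD, so those entries could not count as moved. No member was called, so no called member value could turn its sign. Signs of uncalled members did turn, such as those of Slc6a3, Slc18a2 and the brighter Drd2 probe for the diet under median centring. No paired analysis was possible because each pair of arrays holds the same 2 RNAs and no test was run. With 1 RNA per group, differences between mice are not measured and the dimmest member, Htr2a, had raw signals of 127 to 174 against median backgrounds of 65 to 75.5.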

Other observations

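Genes that carry the receptor signal inside the cell were measured for 18 of 19 listed, with 0 called. Their median log2 ratio was 0.0048 for WME over LSO and 0.066 for SAMP8 over SAMR1. In the latter 10 were above and 4 below 0 on both arrays, against 25.9% and 23.4% of named genes. Under median centring the strain median was −0.013, where that of all named genes was −0.034. Gnai1, an inhibitory G protein subunit that couples to Drd2 and Htr1a, had a strain ratio of 0.22 ± 0.050, with 0.13, 0.17 and −0.063 at its other probes. S100a10, an adaptor of serotonin receptors, had 0.17 ± 0.027. With diet the largest ratios were −0.11 ± 0.19 for Plcb4, a phospholipase, and −0.095 ± 0.070 for Gnai1, whose other probes had −0.014 ± 0.27, −0.076 ± 0.073 and 0.049 ± 0.14. The 10 pan-neuronal genes had medians of −0.0078 and 0.0014, and the largest ratios were 0.080 ± 0.12 for Syp with diet, followed by 0.062 ± 0.23 for Map2, and −0.098 ± 0.36 for Snap25 with strain (0.042 ± 0.030 and −0.073 ± 0.83 at its other probes), followed by 0.085 ± 0.15 for Nefm.

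By the brightest probe of each member gene, Th had the strain ratio farthest from 0. Over the 4 arrays the genes with ratios closest to those of Th, by Euclidean distance among 14591 measured genes, were Prr36 (0.023), Aimp2 (0.033), L3mbtl3 (0.035), Lzts1 (0.044) and Ncan (0.044). As many as 2085 genes lay within a distance of 0.2.

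Of 10 kidney markers 7 were called higher with WME and 4 lower in SAMP8, with medians of 1.28 and −0.58. Of 9 blood cell markers 2 were called lower with WME and 2 higher in SAMP8, with medians of −0.24 and 0.42. Of 10 pituitary markers Pomc was called higher with WME, the medians were 0.035 and 0.041, and Prl had 0.18 ± 0.15 and 0.53 ± 0.26. Of 12 immediate early genes 2 were called lower with WME and 5 higher in SAMP8. For these lists the shares of all named genes called were 0.109% and 1.48%.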
